A study of Mus musculus with 14 samples.

Results

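Hearts of KIKO-700 mice were compared between the sexes, 3 males against 3 females, on the autosomes. These 6 libraries were all those of the series whose labels name KIKO-700, out of 14 libraries in all. KIKO-700 is a knock-in and knockout line on C57BL/6, in which 1 allele of the engineered gene is deleted and the other carries an inserted repeat. Both sexes carry both alleles, so the genotype is shared by the groups. The animals are untreated and labelled postnatal day 180, and no wild-type heart of their own cohort was analysed here. A few levels are set beside the other libraries of the series, hearts of YG8-800 mice and of wild types for that line. YG8-800 mice lack the mouse form of the engineered gene and carry a human transgene of it with an expanded repeat. Those hearts are labelled postnatal day 180 without a sex, and the study's text says that only males were used. Whole hearts were frozen and read with a 3′ mRNA kit, and the files give whole-number read counts per gene. No label says whether littermates, cages or days were shared, so the p-values below measure the spread between these hearts alone.

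A heart sample is mostly ventricular muscle by RNA, with vessels, fibroblasts, resident macrophages, nerve and blood. It can also carry fat from the epicardium and the great vessels. Male and female mouse hearts are known to differ in size and in hormone exposure, and autosomal sex differences of the normal heart are usually modest.

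The 6 libraries held between 7291596 and 10873728 counts, of which 31.2 to 37.2% came from genes of mitochondrial DNA. Genes of the sex chromosomes matched the labelled sex in 6 of 6 libraries, and they are not described further. One library stood apart from its group. Male replicate 1 correlated with male replicates 2 and 3 at 0.952 each (Pearson's r of log2 CPM, the read count of a gene scaled to library size, across genes, which are not independent replicates), while those 2 correlated with each other at 0.98. The 3 females correlated with one another at 0.977 to 0.982, and male replicate 1 correlated with the females at 0.964 to 0.971. Counts over groups of genes are therefore also given without male replicate 1.

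Few autosomal genes separated the sexes beyond the spread between hearts. Of 11397 autosomal genes tested, 4 had an adjusted p under 0.05 in edgeR's quasi-likelihood test, which is 0.0351% of those tested, and 4 of 4 were higher in females (also 0.0351%). No gene was called higher in males (0%). At an unadjusted p under 0.05, 789 genes passed (6.92%), 376 of them higher in males (3.30%) and 413 higher in females (3.62%). The 3 male values lay wholly above or below the 3 female values for 1422 genes (12.5%), with the males above in 630 (5.53%) and the females above in 792 (6.95%). Genes that pass only the unadjusted threshold are described below by group and are not calls. The median log2 difference over autosomal genes, male minus female, was 0.01. In the same fit without male replicate 1, 810 of 11815 genes were called (6.86%), 458 higher in males (3.88%) and 352 higher in females (2.98%), and 2480 passed the unadjusted threshold (21.0%), 1271 higher in males (10.8%) and 1209 higher in females (10.2%). The 4 genes called over all 6 hearts were called again without it. The filter on low counts was rerun in that fit. It let in genes such as Ccn2, Sdhd and Mrps28, which only male replicates 2 and 3 raised above it. Such genes add to the male side of the list counts given below without male replicate 1. Pck1, which the females raised above the filter, adds to the female side of the adipocyte and hepatocyte lists. In the fit of all 6 hearts, genes such as Alb, Fgb, Serpina1c, Plin1, Cidec and Ucp1 passed the filter only through the females. Nppb passed it only through the males. Each of these could pass a threshold on that side alone.

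**Figure D1:**
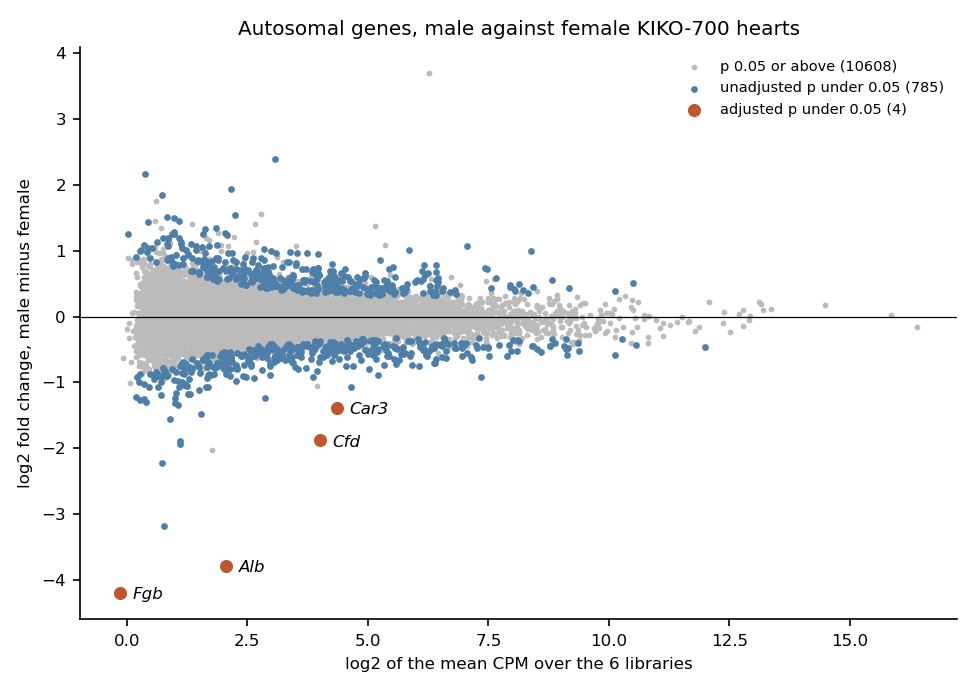
Each point is 1 autosomal gene. The x axis is the log2 of the mean CPM over the 6 libraries and the y axis is the log2 fold change, male minus female. The 4 called genes, Cfd, Car3, Alb and Fgb, all lie below 0, and 785 further genes passed only the unadjusted threshold.

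The 4 genes are 2 genes of fat cells and 2 of liver cells. Cfd encodes adipsin, the complement protease that fat cells secrete. Its level was 30.3, 20.4 and 25.3 CPM in females 1 to 3 and 9.28, 4.44 and 6.74 CPM in males 1 to 3, so the groups did not overlap. Cfd was 1.88 lower in males on the log2 scale (log2 fold change -1.88, SE 0.24, adjusted p = 0.00621, edgeR). Car3 encodes a carbonic anhydrase abundant in fat, liver and slow skeletal muscle. Its level was 25.9, 33.5 and 29.9 CPM in females and 9.66, 10.1 and 14.2 CPM in males. The log2 fold change of Car3 was -1.38 (SE 0.19, adjusted p = 0.00977, edgeR), and again every female heart was above every male heart.

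Alb encodes serum albumin, made by hepatocytes. It was at 5.81, 5.65 and 12.1 CPM in females and at 0.13, 0.55 and 0.89 CPM in males (log2 fold change -3.79, SE 0.48, adjusted p = 0.00621, edgeR). These levels rest on 184 counts in the females and 14 in the males, and the ratio of females to males was 13.9 (exact 95% interval 8.08 to 25.9, for counting error only). Fgb encodes the beta chain of fibrinogen, another hepatocyte product. Its counts were 13, 13 and 15 in females and 1, 0 and 1 in males, a ratio of 21.7 with an exact 95% counting interval of 5.63 to 185 (adjusted p = 0.0322, edgeR). With a mean under 1 CPM, Fgb falls outside the rule by which genes were named and was chosen after its values were seen. The call of Fgb was lost on leaving out any 1 heart other than male replicate 1 (adjusted p 0.143 to 0.364). Cfd stayed called without any 1 male heart and without female replicate 2, but not without female replicate 1 (adjusted p = 0.111) or 3 (adjusted p = 0.0756). Car3 lost its call without any 1 female heart (adjusted p 0.0661 to 0.162) or male replicate 2 (adjusted p = 0.0832), and Alb lost it only without male replicate 2 (adjusted p = 0.0832) among the single hearts left out.

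In GENCODE M21 on GRCm38, Cfd lies at chr10:79890853-79892655 on the plus strand, Car3 at chr3:14863512-14872523, Alb at chr5:90460897-90476602 and Fgb at chr3:83040141-83049863. The stretches around the transcription starts of Cfd, Alb and Fgb are shown with that of Plin1, the lipid droplet gene of fat cells, because all 4 had the female hearts above the male hearts. They are RefSeq stretches of GRCm38.p6, 250 bases before and 50 after the start, written 5′ to 3′ on the strand of the gene. Capitals mark matches on either strand to TTGCNNAA, the core of a site for C/EBP factors of fat and liver, and to GTTAAT, a half-site of the hepatocyte factor HNF1.
Cfd (chr10:79890603-79890902, + strand): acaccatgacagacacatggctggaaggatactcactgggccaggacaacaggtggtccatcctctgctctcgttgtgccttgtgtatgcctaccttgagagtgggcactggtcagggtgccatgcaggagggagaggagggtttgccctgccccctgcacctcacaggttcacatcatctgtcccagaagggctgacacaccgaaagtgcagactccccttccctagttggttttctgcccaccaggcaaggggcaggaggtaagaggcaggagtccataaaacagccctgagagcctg
Plin1 (chr7:79732727-79733026, - strand): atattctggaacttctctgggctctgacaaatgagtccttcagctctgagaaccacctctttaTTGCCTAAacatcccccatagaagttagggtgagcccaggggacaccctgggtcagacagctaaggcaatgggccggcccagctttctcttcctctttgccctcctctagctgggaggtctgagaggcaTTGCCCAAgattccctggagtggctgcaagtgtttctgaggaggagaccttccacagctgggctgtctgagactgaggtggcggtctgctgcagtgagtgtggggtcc
Alb (chr5:90460620-90460919, + strand): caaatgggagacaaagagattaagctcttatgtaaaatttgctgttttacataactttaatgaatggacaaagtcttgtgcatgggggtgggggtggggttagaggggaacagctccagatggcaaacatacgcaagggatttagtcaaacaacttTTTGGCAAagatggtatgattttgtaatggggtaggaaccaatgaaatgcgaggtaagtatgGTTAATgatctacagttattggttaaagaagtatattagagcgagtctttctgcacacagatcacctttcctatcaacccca
Fgb (chr3:83049814-83050113, - strand): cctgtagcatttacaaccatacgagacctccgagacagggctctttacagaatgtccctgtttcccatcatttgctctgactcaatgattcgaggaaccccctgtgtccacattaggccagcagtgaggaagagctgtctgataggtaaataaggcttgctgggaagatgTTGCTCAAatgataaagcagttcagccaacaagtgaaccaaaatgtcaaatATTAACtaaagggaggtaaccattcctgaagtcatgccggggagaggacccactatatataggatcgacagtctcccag
Plin1 held 2 matches to TTGCNNAA, while Alb and Fgb held 1 match to TTGCNNAA and 1 to GTTAAT each. The 2 matches of Fgb start at bases -80 and -29 and those of Alb at -94 and -32, counted from the start base as 0. The Cfd stretch held none, and no stretch held TATAAA or AGGTCA, which were searched as well. Of 25748 autosomal stretches of this length, 10.9% held TTGCNNAA, 7.25% GTTAAT, 14.2% TATAAA and 16% AGGTCA. A match is a description of letters and not a bound site.

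Genes of fat cells leaned towards the females. Of 16 tested genes of the adipocyte list, 7 passed the unadjusted threshold higher in females and 1 higher in males, against 3.62% and 3.30% of all autosomal genes, and the list's median log2 fold change was -0.28. Besides Cfd and Car3 these were Plin1, the lipid droplet coat protein, Cidec, which enlarges lipid droplets, Adipoq, the fat hormone adiponectin, Cdo1, cysteine dioxygenase, and Ucp1, the uncoupling protein of brown fat. Plin1 was at 3.03, 2.71 and 4.42 CPM in females and 0.88, 0.55 and 1.19 CPM in males (log2 fold change -1.89, SE 0.38, adjusted p = 0.223, edgeR). Ucp1 was at 3.66, 1.88 and 2.55 CPM in females and 0.13, 1.25 and 0.40 CPM in males (log2 fold change -2.23, SE 0.54, adjusted p = 0.356, edgeR). All 7, picked by their p on these same values, had the 3 female hearts above the 3 male hearts, as 6.95% of all autosomal genes did. Plin1, Cidec and Ucp1 passed the filter on low counts only through the females. The log2 fold changes of Cidec, Adipoq and Cdo1 were -1.56, -1.08 and -0.91.

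The gene that went the other way was Aqp7, the glycerol channel of fat cells and capillaries. It was at 2.65, 1.77 and 2.81 CPM in females and at 3.76, 11.5 and 6.05 CPM in males (log2 fold change 1.55, SE 0.38). The members of the list that the heart itself makes in quantity overlapped between the sexes. Lpl, the lipoprotein lipase of muscle and fat, spanned 2100 to 2420 CPM in females and 1747 to 2761 CPM in males, and Fabp4, a fatty acid carrier of capillaries and fat, 374 to 433 and 312 to 479 CPM. The summed level of the list, which holds both, overlapped between the sexes, at 2700 to 3020 CPM in females and 2370 to 3220 CPM in males. The fat cell genes Retn and Pck1 were too low to test. Female hearts held 6, 10 and 13 counts of Retn and male hearts 2, 0 and 1, and Pck1, the gluconeogenic enzyme of fat and liver, had 17, 11 and 9 against 1, 5 and 2. When male replicate 1 was left out, 10 of 17 tested members passed higher in females and 2 higher in males, against 10.2% and 10.8% of all genes in that fit, and leaving out any other single heart gave 7 or 8 higher in females. In whole-heart RNA, fewer cells of a type and less RNA per cell cannot be told apart.

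Liver genes formed a second group of this kind. A list of hepatocyte genes was added after Alb and Fgb were seen and is given as a description. Of its 11 tested members, 6 passed the unadjusted threshold higher in females and none higher in males. The shares of all autosomal genes were 3.62% and 3.30%. When any 1 heart was left out, 5 to 9 passed higher in females. Besides Alb and Fgb, the 6 were Serpina1c, Serpina1b, Serpina1d and Gnmt, the glycine methyltransferase of liver. These Serpina1 genes are near-identical genes of the protease inhibitor alpha-1-antitrypsin, whose reads could be split between copies. Serpina1c was at 3.16, 1.29 and 4.69 CPM in females and at 0, 0.69 and 0.30 CPM in males. Like Alb and Fgb, it passed the filter on low counts only through the females. Gnmt was at 5.55, 2.71 and 4.55 CPM in females and at 2.01, 1.53 and 1.09 CPM in males (log2 fold change -1.48, SE 0.35). Apoc3, an apolipoprotein of liver, was too low to test, with 7, 7 and 14 counts in females against 1, 2 and 1 in males. Trf, the iron carrier transferrin, and Hp, haptoglobin, also on the list, had log2 fold changes of -0.07 and -0.27 and did not pass.

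The summed level of the hepatocyte list was 88.3 to 116 CPM in females and 51.7 to 471 CPM in males. The highest value came from Ttr, the thyroid hormone carrier transthyretin, which had 3066 counts (425 CPM) in male replicate 2 against 10 to 120 counts in the other 5 hearts. By the study's text the 8 libraries of YG8-800 and its wild type are all from males, so they give no level for females of another line. Scaled by library total, Fgb had no count in any of these 8 and Alb reached at most 0.257 CPM. On that scale Alb spanned 5.71 to 12 CPM in the KIKO-700 females and 0.14 to 0.83 CPM in the males. The fat gene Cfd, on the same scale, varied from 1.15 to 95.5 CPM in those 8 libraries, a range wider than that of the KIKO-700 hearts. How much tissue other than heart muscle each sample held was not measured, and its part in these differences was not tested.

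**Figure D2:**
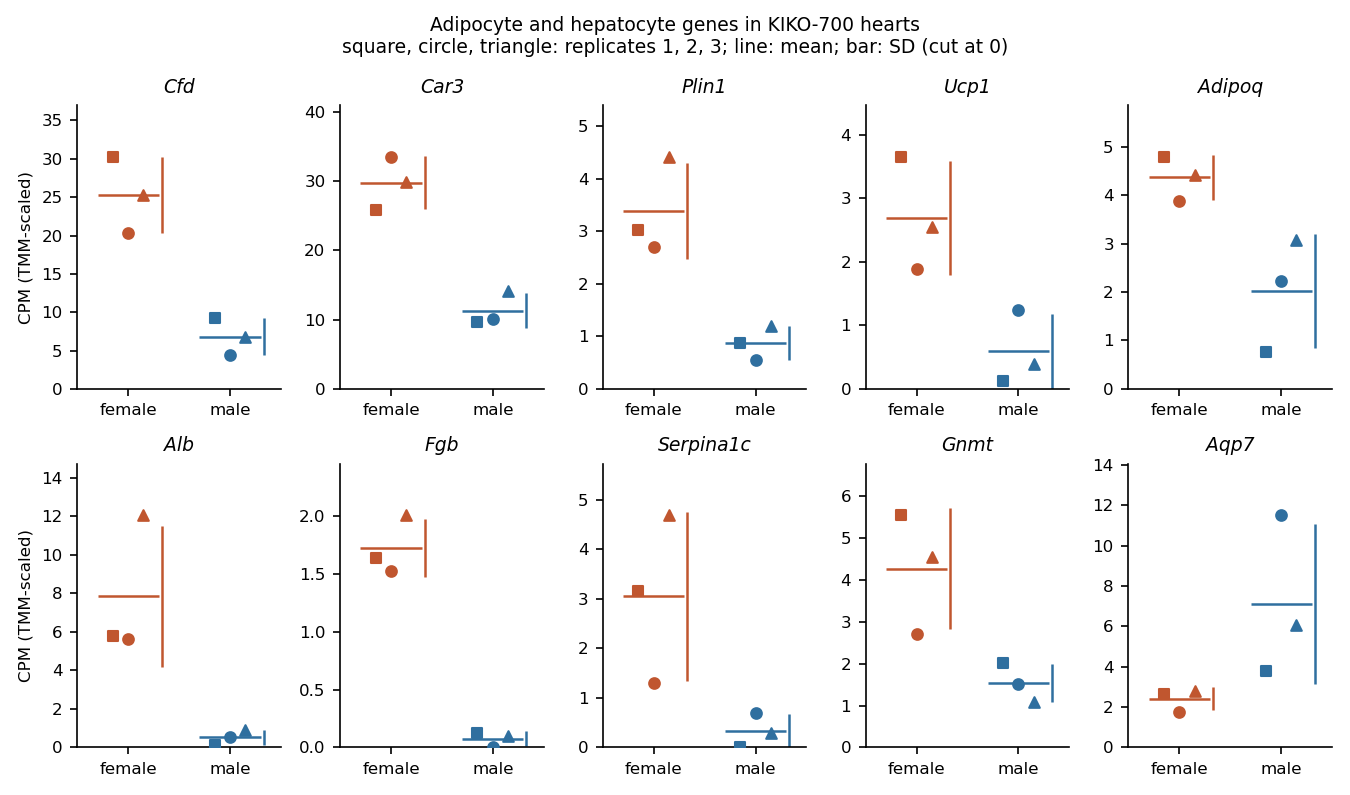
Each panel is 1 gene, with the level in CPM (scaled by edgeR's TMM factors) on the y axis and sex on the x axis. Points are single hearts, lines are group means and bars are SDs (n = 3 per sex). The females lie above the males for the 9 genes other than Aqp7, where the males lie above. The genes were picked by their p or after their values were seen, and 12.5% of all autosomal genes do not overlap.

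Genes of cardiac load and remodelling leaned towards the males. Of 19 tested genes of the cardiac stress list, 5 passed the unadjusted threshold higher in males (3.30% of all autosomal genes did) and none higher in females, with a median log2 fold change of 0.23. No member was called. The summed level of the list overlapped between the sexes, at 3850 to 4340 CPM in females and 3800 to 4620 CPM in males. Nppb encodes the B-type natriuretic peptide, which ventricular muscle releases on stretch. It was at 0.88, 0.94 and 0.27 CPM in females and 2.63, 2.36 and 2.78 CPM in males (log2 fold change 1.85, SE 0.42, adjusted p = 0.336, edgeR). Nppb passed the filter on low counts only through the males. Acta1, the skeletal alpha-actin that the adult heart re-expresses under load, was at 70.3, 93.8 and 92.3 CPM in females and 265, 107 and 165 CPM in males (log2 fold change 1.07, SE 0.27, adjusted p = 0.405, edgeR). For both genes the lowest male heart was above the highest female heart.

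Xirp1, an actin-binding repeat protein of the intercalated disc, was at 12.6, 12.1 and 12.6 CPM in females and 20.6, 20.2 and 14.7 CPM in males (log2 fold change 0.57, SE 0.18). Ankrd23, a titin-binding ankyrin repeat protein, had a log2 fold change of 0.72 (SE 0.19), but an overlapping gene model, Gm42417, carried nearly the same counts, so its reads are of uncertain origin. Not every stress gene leaned this way. Nppa, the atrial natriuretic peptide, spanned 1007 to 1171 CPM in females and 1011 to 1546 CPM in males, and the 2 ranges overlapped. Myh7, the slow myosin heavy chain that commonly returns in stressed mouse hearts, was at 1563, 1502 and 1699 CPM in females and 1608, 996 and 1010 CPM in males (log2 fold change -0.40, SE 0.19, adjusted p = 0.707). Without male replicate 1, 8 of 20 tested members passed higher in males and 1 higher in females, against 10.8% and 10.2% of all genes. The 8 include Ccn2, which passed the filter on low counts only through male replicates 2 and 3. In that fit Nppb and Acta1 were called higher in males (adjusted p = 0.0125 and 0.0167, edgeR). Myh7 was called higher in females (log2 fold change -0.66, adjusted p = 0.00236, edgeR). On the scale of library totals, Nppb was at 1.80 to 34.3 CPM in the 8 other libraries, which are from males by the study's text. On the same scale the KIKO-700 females spanned 0.267 to 0.952 CPM and the males 2.33 to 2.83 CPM.

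Among sarcomere genes 3 of 36 passed higher in males and none higher in females, a share of 8.33% against 6.92% of all autosomal genes. They were Acta1, Myot, a Z-disc protein (log2 fold change 0.75), and Pdlim5, a Z-disc adaptor (0.70). Pdlim5 was at 68.1, 46.0 and 45.8 CPM in females and 53.2, 109 and 97.8 CPM in males, so male replicate 1 was within the female range. Of 36 tested genes of calcium handling and ion channels, 3 passed higher in males, also 8.33% and near the share of all genes. Jph2, which ties the sarcoplasmic reticulum to the T-tubule, had a log2 fold change of 0.40, and the potassium channels Kcna5 and Kcnk3 had 0.63 and 0.47. Of 25 cytosolic heat shock genes, the small heat shock proteins Hspb7 (log2 fold change 1.00) and Hspb6 (0.39) passed higher in males, which is 8% of that list. Hspb7, a cardiac muscle chaperone, was at 220, 221 and 227 CPM in females and 287, 616 and 429 CPM in males (SE 0.23, adjusted p = 0.336, edgeR), so the females were tightly grouped and the males were not.

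Of 39 tested genes of the extracellular matrix list, 5 passed higher in males and 2 higher in females, against 3.30% and 3.62% of all autosomal genes. The male-side count was 3 without male replicate 3, and the median log2 fold change was 0.12. Col8a1, a short-chain collagen of vessel walls and heart, was at 7.32, 8.12 and 7.77 CPM in females and 13.04, 16.9 and 15.7 CPM in males (log2 fold change 0.97, SE 0.18, adjusted p = 0.126, edgeR). Col4a1 and Col4a2, the head-to-head pair of basement membrane collagen genes, had log2 fold changes of 0.55 (SE 0.15) and 0.53 (SE 0.15). Col4a1 was at 69.9, 71.3 and 67.3 CPM in females and 95.4, 112 and 98.9 CPM in males, with no overlap. Eln, elastin, had a log2 fold change of 0.65, and Lum, the fibroblast proteoglycan lumican, of -0.48. Leaving out male replicate 1, 8 of 39 passed higher in males and 2 higher in females, where 10.8% and 10.2% of all genes did, and Col8a1, Col4a1 and Col4a2 were called higher in males (adjusted p 0.000306, 0.0046 and 0.0109, edgeR).

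Of 27 genes of smooth muscle contraction and actin, 5 passed higher in males and 2 higher in females. The shares of all autosomal genes were 3.30% and 3.62%. The 5 became 3 without female replicate 3 or without male replicate 2. Ppp1r14a, the smooth muscle inhibitor of myosin phosphatase, was at 1.51, 3.06 and 2.41 CPM in females and 3.64, 6.38 and 4.96 CPM in males (log2 fold change 1.08, SE 0.32). Smtn, a smooth muscle actin-binding protein, and Rhoa, the contraction GTPase, each had a log2 fold change of 0.53. Adra1b, an alpha-1 adrenergic receptor that cardiac muscle carries, went the other way (-0.56). Among 23 fibroblast genes none passed higher in males and 2 higher in females, Lum and Smoc2 (-0.57), a matricellular calcium-binding protein. Without male replicate 1, 6 of 24 fibroblast genes passed higher in males and 4 higher in females, against 10.8% and 10.2% of all genes.

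The endothelial list split. Of 29 tested members, 4 passed higher in males and 1 higher in females, against 3.30% and 3.62% of all autosomal genes. Without female replicate 1 or female replicate 3, 1 passed in each direction. Vwf, the von Willebrand clotting factor of larger vessels and endocardium, was at 45.8, 49.5 and 49.7 CPM in females and 24.7, 22.6 and 31.1 CPM in males (log2 fold change -0.88, SE 0.16, adjusted p = 0.126, edgeR). The lowest female heart was thus well above the highest male heart. Cdh5, the endothelial cadherin, was at 21.5, 22.8 and 20.4 CPM in females and 27.1, 31.1 and 29.5 CPM in males (log2 fold change 0.44, SE 0.15). Aplnr, the apelin receptor, Cd300lg, a capillary glycoprotein, and Robo4, an endothelial guidance receptor, had log2 fold changes of 0.71, 0.41 and 0.41. Vwf was called without male replicate 1 (log2 fold change -0.84, adjusted p = 0.000957, edgeR), and Cdh5 was too (0.49, adjusted p = 0.0285). The general endothelial marker Pecam1 spanned 94.98 to 125 CPM in females and 97.9 to 178 CPM in males.

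**Figure D3:**
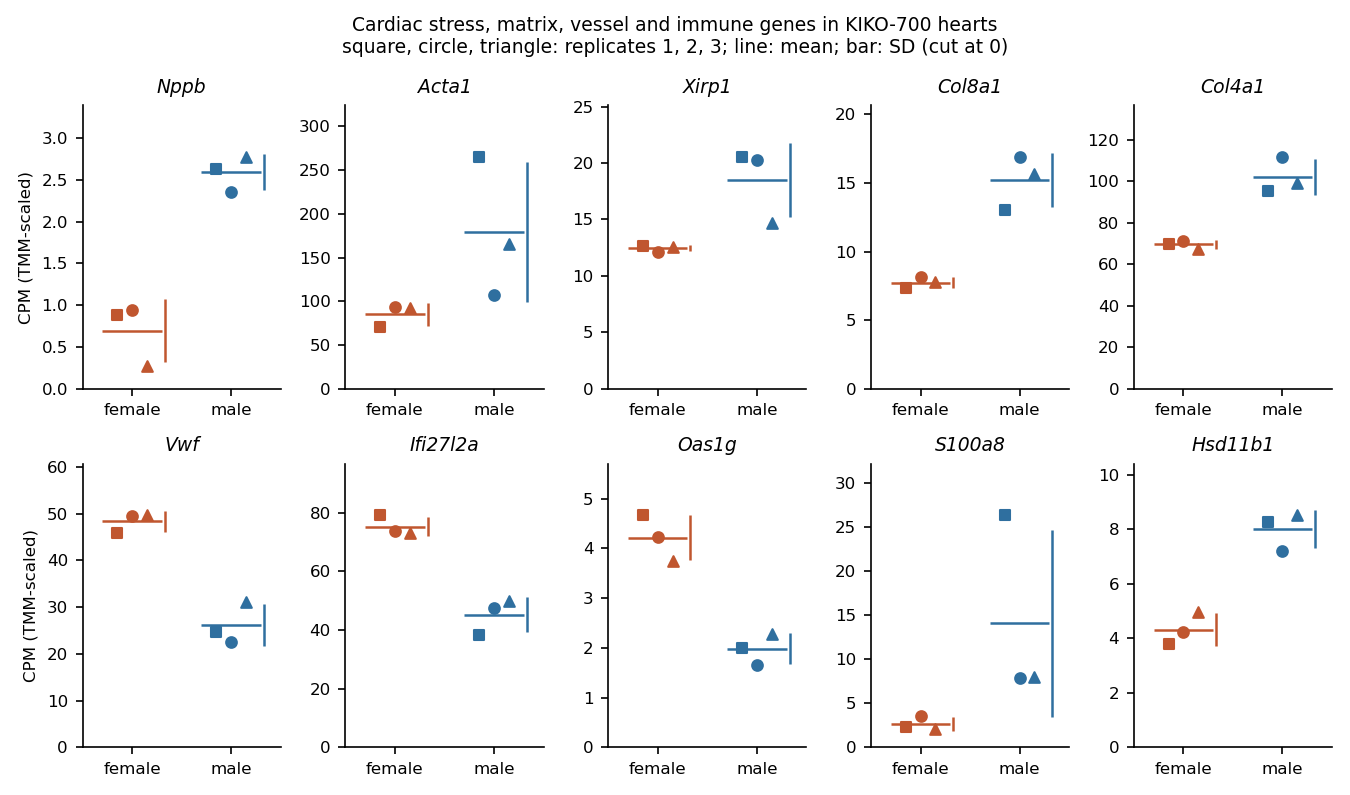
Levels in CPM (y axis) by sex (x axis) for cardiac stress genes (Nppb, Acta1, Xirp1), matrix genes (Col8a1, Col4a1), Vwf, interferon-stimulated genes (Ifi27l2a, Oas1g), S100a8 and Hsd11b1. Points are single hearts, lines are means and bars are SDs (n = 3 per sex), and the sexes do not overlap in any of the 10 panels. The 10 genes were picked by their p on these same values, and 12.5% of all autosomal genes do not overlap.

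Immune genes leaned towards the females in several groups. Of 37 tested interferon-stimulated genes, 8 passed the unadjusted threshold higher in females and none higher in males, with a median log2 fold change of -0.18. Of all autosomal genes, 3.62% passed higher in females and 3.30% higher in males. That count of 8 fell to 4 without female replicate 1, to 3 without female replicate 2 and to 5 without male replicate 3. Ifi27l2a, a small interferon-induced protein, was at 79.1, 73.6 and 73.0 CPM in females and 38.4, 47.4 and 49.96 CPM in males (log2 fold change -0.73, SE 0.16, adjusted p = 0.281, edgeR). Oas1g, an antiviral oligoadenylate synthetase of a family of close copies, was at 4.67, 4.24 and 3.75 CPM in females and 2.01, 1.66 and 2.28 CPM in males (-1.07, SE 0.28). Irf7, a transcription factor of the interferon response, had a log2 fold change of -0.54. Of 19 MHC genes, 5 passed higher in females and 1 higher in males, and the 5 became 1 without female replicate 2, 2 without male replicate 2 and 3 without male replicate 3. The class I genes H2-K1 (-0.48), H2-Q6 (-1.32) and H2-Q7 (-0.70) share near-identical stretches, so how their reads divide is uncertain.

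H2-Aa, a chain of the class II complex that dendritic cells, B cells and macrophages carry, was at 95.2, 288 and 256 CPM in females and 130, 102 and 106 CPM in males (log2 fold change -0.92), and the sexes overlapped through female replicate 1. Psmb9, an immunoproteasome subunit, passed higher in males (1.08) with 1.38, 5.82 and 5.95 CPM in males 1 to 3 against 1.21 to 2.78 CPM in females, so male replicate 1 lay among the females. Of 22 complement and coagulation genes, 5 passed higher in females and none higher in males, against 3.62% and 3.30% of all autosomal genes. The 5 became 3 without female replicate 1 and 2 without female replicate 3. Besides Cfd and Vwf, which other lists hold too, the 5 included Cfb, factor B of the alternative pathway (-0.59), and C1qc, a chain of C1q made by macrophages (-0.42). C1qc was at 45.3, 43.2 and 51.7 CPM in females and 35.6, 33.7 and 35.7 CPM in males.

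Of 40 macrophage and innate immune genes, 6 passed higher in females and 4 higher in males, against 3.62% and 3.30% of all autosomal genes. The 6 became 3 without female replicate 3. Ctss, the lysosomal protease cathepsin S, was at 45.8, 36.7 and 40.5 CPM in females and 28.5, 28.4 and 25.6 CPM in males (log2 fold change -0.58, SE 0.15). Tyrobp, the myeloid adaptor DAP12, was at 21.6, 21.8 and 22.4 CPM in females and 14.3, 15.8 and 15.96 CPM in males (-0.51, SE 0.15). Acod1, which makes itaconate in activated myeloid cells, belongs to no list and was at 4.16, 4.00 and 2.01 CPM in females and 1.13, 0.83 and 0.69 CPM in males (-1.94, SE 0.40, adjusted p = 0.235, edgeR).

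Male-side members of that list included a neutrophil pair. S100a8 was at 2.27, 3.53 and 2.14 CPM in females and 26.3, 7.91 and 8.03 CPM in males (log2 fold change 2.39, SE 0.52, adjusted p = 0.356, edgeR). S100a9, its partner in calprotectin, was at 2.145, 1.29 and 2.14 CPM in females and 12.5, 3.74 and 5.06 CPM in males (1.93, SE 0.45). Male replicate 1 was the highest heart for both, and neither gene was called over all 6 hearts. Without male replicate 1, S100a8 was called higher in males (1.57, adjusted p = 0.000324, edgeR), as was S100a9 (1.27, adjusted p = 0.0137, edgeR). Of 19 neutrophil genes listed after the data were seen, 3 could be tested, and only 2 of these, S100a8 and S100a9, had a log2 fold change above 0. Members too low to test were mixed. Mmp9 had 7, 19 and 12 counts in females and 4, 5 and 11 in males, and Retnlg 6, 3 and 5 against 12, 4 and 22. Without male replicate 1, 7 of 37 interferon genes passed higher in females and 1 higher in males, and the macrophage list had 11 of 42 higher in females and 4 higher in males. Of all genes in that fit, 10.2% passed higher in females and 10.8% higher in males.

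Immediate early genes and hormone response genes held a few male-side members. Of 15 tested immediate early genes, 4 passed higher in males and 1 higher in females, against 3.30% and 3.62% of all autosomal genes. Ier2 was at 1.77, 2.24 and 1.74 CPM in females and 4.01, 3.61 and 4.36 CPM in males (log2 fold change 1.06, SE 0.28), and Zfp36, which speeds decay of inflammatory mRNAs, had a log2 fold change of 1.28. Ier3 went the other way (-0.45). Of 19 genes responsive to glucocorticoids, 3 passed higher in males. Hsd11b1, the enzyme that regenerates active glucocorticoid inside cells, was at 3.79, 4.24 and 4.96 CPM in females and 8.28, 7.21 and 8.52 CPM in males (0.89, SE 0.21, adjusted p = 0.336, edgeR). Sgk1, the serum- and glucocorticoid-regulated kinase, was at 14.4, 15.3 and 12.9 CPM in females and 25.0, 26.4 and 18.04 CPM in males (0.70, SE 0.18). Mt2, a metallothionein, had 144 CPM in male replicate 1 against 65.5 and 62.4 CPM in the other males and 41.3 to 58.9 CPM in females.

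Genes tied directly to sex hormones gave no passing member. Of 21 tested genes of androgen and estrogen receptors and response, none passed in either direction (0 of 21 against 6.92% of all genes), with a median log2 fold change of -0.04. Esr1, the estrogen receptor, had 4, 8 and 10 counts in females and 1, 5 and 9 in males, too few to test. Autosomal relatives of sex-linked genes, 10 tested, also gave none.

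Genes of the cytosolic ribosome leaned towards the females, by a count that changed with single hearts. Of 82 cytosolic ribosomal protein genes on autosomes, 18 passed higher in females and none higher in males, against 3.62% and 3.30% of all autosomal genes. The median log2 fold change was -0.15. The count of 18 fell to 4 without male replicate 2 and to 5 without female replicate 2. Rps29 was at 125, 118 and 91.8 CPM in females and 68.8, 60.3 and 90.0 CPM in males (log2 fold change -0.61, SE 0.18), and Rps3a1 at 161, 191 and 162 CPM in females and 137, 76.1 and 122 CPM in males (-0.62, SE 0.20). Rps21 (-0.59) and Rpl30 (-0.64) were alike, and for these 4, picked by their p on the same values, the females lay above the males. Of the 82 genes, 17 had the females above and 2 the males above, against 6.95% and 5.53% of all autosomal genes. Processed pseudogenes, reverse-transcribed copies of mRNAs whose reads are hard to tell from those of their parents, showed the same lean more widely. Of 590 tested, 125 passed higher in females and 9 higher in males, with a median of -0.29, while of 10345 protein-coding genes 267 and 357 did, with a median of 0.02. The count of 125 fell to 67 of 610 without female replicate 1, to 50 of 615 without female replicate 2 and to 43 of 627 without male replicate 2, and rose to 208 of 632 without male replicate 1. It was 5 of 780 with all 14 libraries in one fit and 39 of 161 when genes of mitochondrial DNA and with Gm names were left out, which removes most of these pseudogenes.

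Pseudogenes named for ribosomal protein genes gave 26 higher in females and 3 higher in males of 101, and the other 567 pseudogenes of any class gave 105 and 6. Processed pseudogenes took 2.58 to 3.09% of all counts in females and 2.71, 2.02 and 2.39% in males 1 to 3, so male replicate 1 lay within the female range. In the fit without male replicate 1, 94 of 632 processed pseudogenes were called higher in females and 17 higher in males, against 2.98% and 3.88% of all genes. Of cytosolic ribosomal protein genes, 20 of 83 then passed higher in females and 8 higher in males, against 10.2% and 10.8% of all genes. Mitochondrial ribosomal proteins, 75 tested, gave none in either direction over all 6 hearts, and without male replicate 1 they gave 7 in each direction of 77. Of the 77, 3 (3.9%) were called higher in males, near the 3.88% of all genes. The 3 include Mrps28, which passed the filter on low counts only through male replicates 2 and 3.

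Iron-sulfur clusters are built in mitochondria and serve as cofactors of respiratory chain and TCA cycle enzymes. Of 23 genes of their assembly, 1 passed in each direction. These were Ndufab1, the mitochondrial acyl carrier protein (-0.33), and Ciao1, a cytosolic assembly factor (0.59).

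The mitochondrial integrated stress response is the transcription programme that failing mitochondria switch on through ATF4 and its relatives. None of its 21 tested genes passed in either direction, where 6.92% of all autosomal genes did, and the median log2 fold change was 0.08. Atf4 itself was at 59.3, 62.8 and 66.8 CPM in females and 73.5, 63.4 and 64.2 CPM in males (0.09, SE 0.15), and Atf5 (0.24), Ddit3 (0.20), Trib3 (0.08) and Cebpb (0.46) were the other regulators tested. Gdf15, a secreted stress hormone, was at 2.145, 1.53 and 2.14 CPM in females and 1.88, 3.88 and 1.69 CPM in males (0.33, SE 0.38). Among the one-carbon and serine genes, Mthfd2 was at -0.51 (SE 0.38), Psat1 at -0.13, Mthfd1 at -0.02, Mthfd1l at 0.09, Aldh1l2 at -0.07 and Shmt2 at 0.29. Shmt1, the cytosolic serine enzyme, was at 7.02 CPM in male replicate 1 and 1.51 to 3.06 CPM in the other 5 hearts, and Chac1, a glutathione-degrading target of ATF4, at 8.53 against 2.18 to 4.96 CPM.

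The remaining tested members were Asns, asparagine synthetase (0.01), Nupr1 (-0.38), Herpud1 (-0.23), the protease genes Lonp1 (0.07) and Clpp (-0.10) and the chaperonin genes Hspd1 (0.00) and Hspe1 (0.09). Each had overlapping ranges in the 2 sexes. Fgf21, the stress hormone of liver and muscle, had no count in any of the 6 libraries. The listed genes Cbs, Aldh18a1, Pycr1, Slc7a11, Cth, Sesn2, Psph and Phgdh were also too low to test. Of 22 members tested without male replicate 1, none was called, 1 passed the unadjusted threshold higher in males and 2 higher in females. In that fit 6.86% of all genes were called, and 10.8% passed higher in males and 10.2% higher in females.

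In the respiratory chain few genes passed. Of 34 complex I genes 1 passed, Ndufb5, lower in males (log2 fold change -0.35), and the median was -0.14, while 9 of 34 had all 3 females above all 3 males and none the reverse, against 6.95% and 5.53% of all autosomal genes. Of 24 genes of complexes III and IV, 3 passed higher in males and 2 higher in females, against 3.30% and 3.62% of all autosomal genes. The heart and muscle subunit gene Cox6a2 was at 4499, 4610 and 4991 CPM in females and 3168, 3322 and 3782 CPM in males (-0.46, SE 0.15). Cox4i1, the common form of another subunit, was at 1160, 1214 and 1205 CPM in females and 1721, 2069 and 1285 CPM in males (0.50, SE 0.18), Cox4i2, its other form, had a log2 fold change of 0.86, and Cox5b had 0.50. The ATP synthase list had 17 tested entries for 16 genes, since Atp5o stands as 2 overlapping gene models, with a median of -0.18 and 1 passing. The passing entry was the lesser Atp5o model (mean 19.2 CPM, -0.47), and the main model (mean 1428 CPM, -0.24) did not pass. Without male replicate 1, 11 of 34 complex I, 7 of 24 complex III and IV and 9 of 17 ATP synthase entries passed higher in females. Those higher in males were 0, 3 and 0, and the 9 include both Atp5o models. Of all genes in that fit, 10.2% passed higher in females and 10.8% higher in males.

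Of 45 genes of superoxide, peroxide and glutathione handling, 4 passed higher in females and 1 higher in males. The shares of all autosomal genes were 3.62% and 3.30%. Gpx1, the main cytosolic glutathione peroxidase, was at 94.5, 109 and 109 CPM in females and 74.4, 74.2 and 83.8 CPM in males (log2 fold change -0.43, SE 0.15). The glutathione transferases Gsta3, Gstt1 and Gstp1 had -0.64, -0.50 and -0.56, with Gstp1 counted among close copies. In iron metabolism Ftl1, the ferritin light chain, was at 92.9, 91.6 and 95.4 CPM in females and 77.1, 52.4 and 68.3 CPM in males (-0.50, SE 0.17), though ferritin pseudogenes can take its reads. Steap3, an endosomal ferric reductase, had 0.48. In fatty acid oxidation, 28 genes gave Acad11 higher in males (0.73) and Acaa1b, a peroxisomal thiolase, higher in females (-1.05). The 28 PPAR and fasting genes, 28 glycolysis genes, 23 TCA cycle genes, 15 atrial and 10 ventricular muscle genes and 21 genes of the unfolded protein response of the endoplasmic reticulum gave none in either direction.

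The other groups read as follows without male replicate 1, where 10.8% of all genes passed the unadjusted threshold higher in males and 10.2% higher in females. The hepatocyte list had 9 of 12 members higher in females and none higher in males, and the complement and coagulation list 6 of 23 and 2. Sarcomere genes gave 6 of 36 higher in males and 5 higher in females, calcium handling and channel genes 10 of 38 and 3, and smooth muscle and actin genes 9 of 28 and 4. The heat shock list turned towards the females, with 8 of 25 higher in females and 5 higher in males. Endothelial genes gave 5 of 29 higher in males and 4 higher in females, immediate early genes 7 of 17 and 3, and MHC genes 3 of 21 and 5. The glucocorticoid list, 3 to 0 for the males over all 6 hearts, gave 2 of 19 higher in males and 4 higher in females. Among metabolic groups the counts higher in males and in females were 8 and 5 of 28 for fatty acid oxidation, 4 and 3 of 24 for the TCA cycle, 3 and 5 of 29 for PPAR and fasting genes, 3 and 3 of 29 for glycolysis, 5 and 9 of 46 for superoxide, peroxide and glutathione, 4 and 3 of 17 for iron handling and 2 and 3 of 23 for iron-sulfur assembly. The androgen and estrogen list gave 2 and 3 of 21, the atrial list 3 and 1 of 15, the ventricular list 0 and 3 of 10, the list of the unfolded protein response of the endoplasmic reticulum 2 and 3 of 21, the heme list 3 and 2 of 15 and the relatives of sex-linked genes 1 and 1 of 10.

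**Figure D4:**
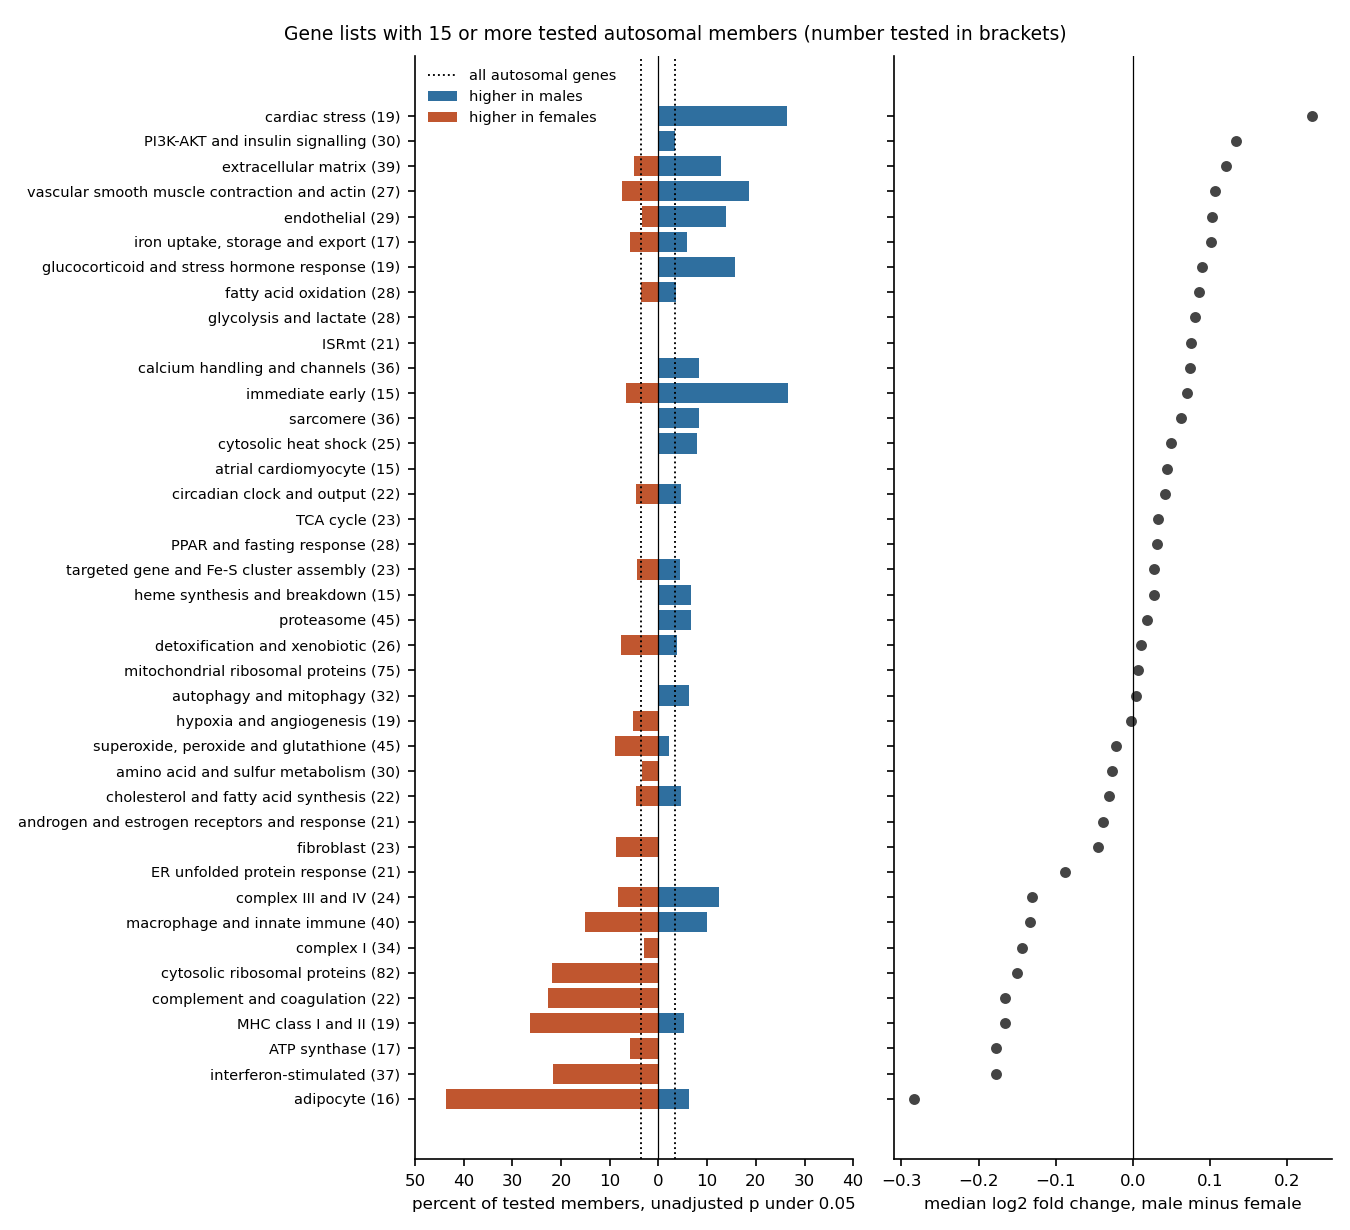
Bars on the left give the percent of tested members that passed, for each gene list with 15 or more tested members, an unadjusted p under 0.05, higher in males to the right and higher in females to the left, with dotted lines at 3.30% and 3.62% for all autosomal genes. Points on the right give the median log2 fold change of the list, from -0.28 for adipocyte genes to 0.23 for cardiac stress genes among these lists.

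A set of genes had male replicates 2 and 3 together and male replicate 1 with the females. These genes were picked once their values were known, and the pattern rests on 2 male hearts. Sdhd, the membrane anchor of succinate dehydrogenase, had 8, 4 and 6 counts in females and 4, 59 and 77 in males. Ccn2, the connective tissue growth factor, had 9, 10 and 5 against 6, 50 and 89, and Mrps28, a mitochondrial ribosomal protein, had 2, 0 and 0 against 1, 29 and 52. Over all 6 hearts these 3 genes did not pass the filter on low counts.

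Other genes of this pattern were better expressed. Cs, citrate synthase, was at 72.2, 62.5 and 58.0 CPM in females and 42.8, 126 and 116 CPM in males. Fh1, fumarase, was at 44.8, 30.8 and 28.4 against 16.8, 72.5 and 71.0 CPM, and Etfdh, which passes electrons from fatty acid oxidation to ubiquinone, at 30.04, 22.4 and 23.7 against 11.9, 48.3 and 48.6 CPM. In each of them male replicate 1 was the lowest of the 6 hearts. The same held for Gja1, connexin 43 of the gap junctions, at 17.4, 14.7 and 14.1 against 9.03, 31.2 and 31.9 CPM, for Iscu, the iron-sulfur scaffold, at 10.3, 7.41 and 4.42 against 3.51, 19.3 and 23.7 CPM, for Tfrc, the transferrin receptor, at 6.56, 10.4 and 9.38 against 5.39, 18.3 and 16.1 CPM, and for Alas1, the first enzyme of heme synthesis, at 6.56, 6.36 and 8.17 against 5.27, 18.03 and 18.1 CPM.

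Alas1 was the only 1 of 15 heme genes to pass over all 6 hearts (log2 fold change 0.98, SE 0.39, adjusted p = 0.658, edgeR), and without male replicate 1 it was called (1.37, adjusted p = 3.3e-05). Without that heart Cs, Gja1 and Fh1 had log2 fold changes of 0.91, 1.03 and 1.05 (adjusted p 0.000126, 0.000107 and 0.000198, edgeR). In the other direction, Ahsg, the hepatocyte glycoprotein fetuin-A, was at 24.1, 19.1 and 22.4 CPM in females and 24.7, 9.43 and 10.5 CPM in males. Male replicate 1 was high alone for Kcnip2, a subunit of the transient outward potassium channel, at 497 CPM against 171 to 258 CPM in the other 5 hearts, and for Pnpla2, the triglyceride lipase, at 286 against 104 to 177 CPM. Without it both were called higher in females, with log2 fold changes of -0.48 for Kcnip2 (adjusted p = 0.0245, edgeR) and -0.61 for Pnpla2 (adjusted p = 0.00534), where the fit of all 6 hearts had 0.23 and 0.02. Several of these genes also varied widely within the 8 other libraries, where Sdhd spanned 2.49 to 67 CPM and Ccn2 0.88 to 82.9 CPM by library total. Whether male replicate 1 or the other 2 males are typical of KIKO-700 males cannot be told apart with 3 hearts.

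**Figure D5:**
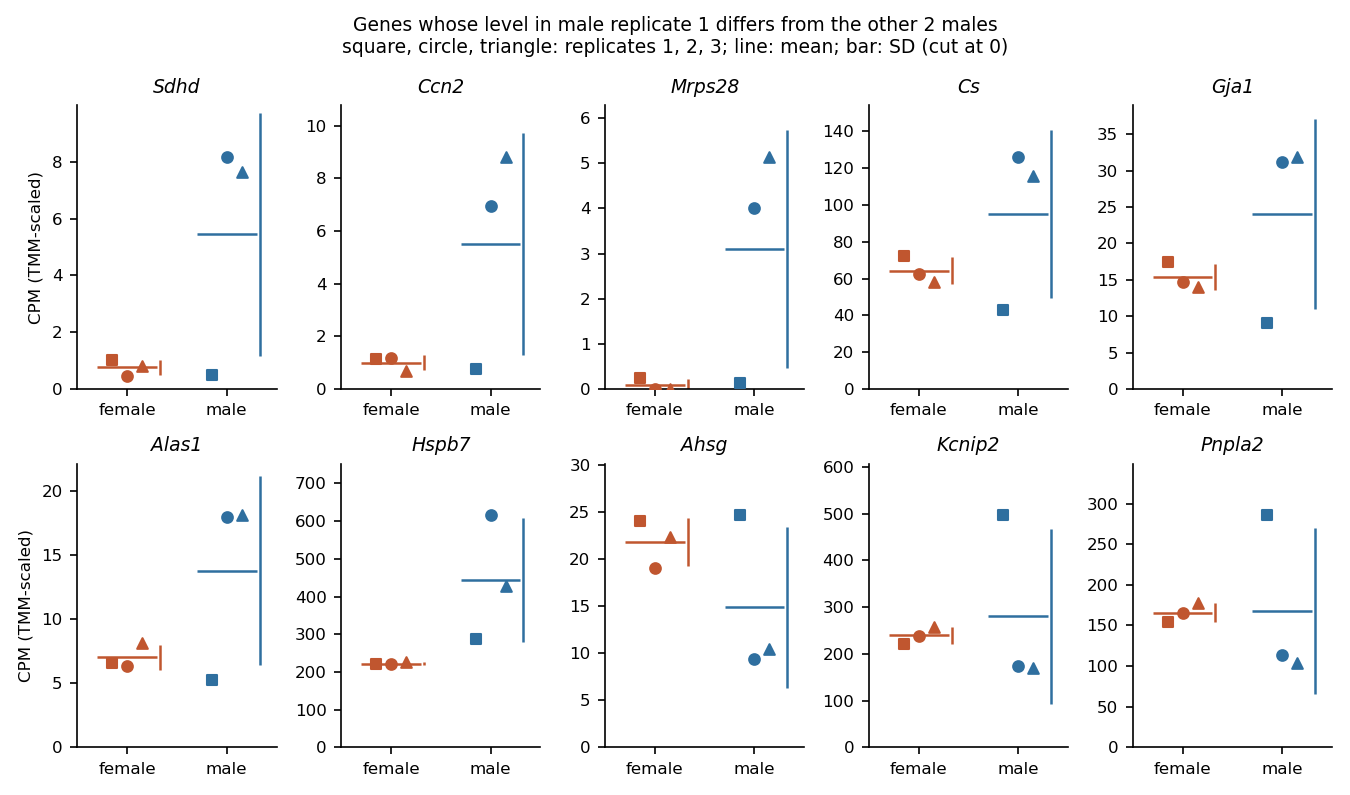
Levels in CPM (y axis) by sex (x axis) for 10 genes, with squares, circles and triangles for replicates 1, 2 and 3, lines for means and bars for SDs (n = 3 per sex). The blue square, male replicate 1, lies nearer to the females than the other males do for the 8 genes from Sdhd to Ahsg, and above all other hearts for Kcnip2 and Pnpla2.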

How the data were processed

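RNA of 6 KIKO-700 hearts was sequenced from the 3′ end. The authors deposited whole-number counts of reads per Ensembl gene, not normalized. The accounts of how they were made were not reconciled here. The study's methods give ShortRead, Rsubread, stranded featureCounts and limma. STAR 2.5.0a, HTSeq 0.6.1 and GRCm38.p6 stand in the processing notes of the submitters. The study's text gives an older age than the labels. Whether molecular identifiers were used is not given in the sources used here. Intervals on counts cover counting error only.

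Of 54532 identifiers, 54495 matched GENCODE M21. In R 4.3.3, filterByExpr kept 11801 genes over the 6 libraries, TMM factors scaled them, and edgeR 4.0.16 tested them with robust quasi-likelihood fits, adjusted by Benjamini and Hochberg's method over every gene tested, sex-linked genes included. On simulated counts at 3 hearts per sex it called 55 of 100 genes set to a log2 change of 1 and 92 of 100 set to 2, with 12 of 11601 unchanged genes called. Changes were set only in genes with a mean of at least 1 CPM, and each gene was drawn on its own. No shift of many genes in 1 heart, as in male replicate 1, was simulated, so these counts hold for the simulated setting only. An exact permutation of 3 against 3 cannot go below p = 0.1.

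The comparison, the 50 gene lists and the rule for naming genes were chosen with earlier results of these data known, and 3 lists were added after seeing the values. The rule names the engineered gene, which is not reported here, the mitochondrial stress genes, up to 15 called protein-coding genes in each direction with a mean of at least 1 CPM, up to 5 called non-coding genes (none was called) and, from each list, up to 4 members with the smallest unadjusted p under 0.05. Other genes (Fgb, Cidec, Adipoq, Aqp7, Lpl, Fabp4, Nppa, Myh7, Gm42417, Acod1, Pecam1, Robo4, Prmt1, Cacng7, the genes too low to test, the hepatocyte genes other than Alb, and most genes set apart by male replicate 1) were chosen after their values were seen. DESeq2 1.42.0, limma 3.58.1 and other settings served as alternatives.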

Additional observations from a re-analysis of the deposited data

How the results depend on the processing

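The count of 4 called genes moved to 85 with no filter on low counts (53 higher in males) and to 2 with at least 10 counts in every library. It moved to 12 with DESeq2 (6 higher in males) and to 0 with all 14 libraries in one fit. Leaving out adipocyte and hepatocyte genes, an alternative chosen after seeing the data, also gave 0. The genes left out include all 4 called genes, so the loss of these 4 was fixed beforehand. In the fits without a call, edgeR gave 171 and 778 genes at an unadjusted p under 0.05. Leaving out 1 heart gave from 1 to 810 called genes, and from 426 to 2480 at the unadjusted threshold, with both maxima on omission of male replicate 1 (1 to 4 called without any other heart). The unadjusted count of 789 moved to 1390 with no filter and to 171 with all 14 libraries, where 72.5% were higher in males, against 47.7%. The cause was not tested. Replicate numbers did not pair the hearts: same-numbered deviations correlated at -0.169, -0.0434 and -0.19, no heart correlated best with its own number, and a fit with the replicate block called 3 genes and gave 582 at the unadjusted threshold. Of the 4 called genes, limma-voom lost Alb (adjusted p = 0.148). Fgb was lost by limma-trend, DESeq2, the replicate block and the omission of X and Y genes (adjusted p 0.174, 0.0845, 0.134 and 0.0549). The fit of all 14 libraries lost the 4 calls.

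Of 123 named genes refitted in each setting that tested them, none that passed a threshold over all 6 hearts changed direction, and several stress response genes near 0 did. Among genes given for their levels, Kcnip2 and Pnpla2 turned on omission of male replicate 1. Hspd1 was 0.01 with RLE factors, library size alone, no filter, DESeq2 and all 14 libraries, and Asns -0.01 with upper-quartile factors, -0.13 with limma-voom, -0.07 with limma-trend and -0.04 with the replicate block. Leaving out single hearts gave log2 ranges of -0.32 to 0.02 for Clpp, -0.47 to 0.26 for Aldh1l2, 0 to 1.06 for Shmt1, -0.33 to 0.13 for Mthfd1, -0.51 to 0.04 for Psat1, -0.31 to 0.59 for Shmt2, -0.15 to 0.09 for Hspd1, -0.54 to 0.63 for Chac1, -0.64 to 0.31 for Asns, -0.08 to 0.22 for Trib3, -0.11 to 0.56 for Gdf15, -0.1 to 0.21 for Mthfd1l, -0.09 to 0.21 for Lonp1 and -0.07 to 0.19 for Hspe1. At 3 hearts a sex, small differences of genes near 1 CPM are not detectable at this depth.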

Other observations

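Calcoco1, Prmt1, Cacng7 and Ces1d also had separate ranges in the 2 sexes, as 12.5% of all autosomal genes did. Calcoco1, a receptor for autophagy of the endoplasmic reticulum, was at 74.7, 53.5 and 58.1 CPM in females and 116, 119 and 86.5 CPM in males (log2 fold change 0.79, SE 0.18). Prmt1, the main protein arginine methyltransferase, was at 44.9, 37.9 and 31.6 CPM in females and 82.8, 93.5 and 54.2 CPM in males (1.01, SE 0.21). Cacng7, an auxiliary subunit of calcium channels and glutamate receptors, had 3, 5 and 3 counts in females and 12, 21 and 20 in males, and the gene model Gm44256 overlaps it on the same strand. Ces1d, a carboxylesterase of fat and liver that hydrolyses lipids, was at 20.6, 21.7 and 18.5 CPM in females and 11.9, 14.1 and 13.5 CPM in males (-0.62, SE 0.16), with Gm45909 overlapping it on the same strand. No gene of this paragraph was called over all 6 hearts, and Prmt1 and Cacng7 were picked once their values were known. Fasn, fatty acid synthase, had 61.5 CPM in female replicate 3 against 14.2 to 22.7 CPM in the other 5 hearts. Of the clock genes, Nr1d1, the repressor REV-ERB alpha, had a log2 fold change of 0.48 and Hlf, a clock output factor, of -0.39, and 22 tested members gave 1 passing in each direction, and without male replicate 1 they gave 3 higher in males and 4 higher in females. The hour at which hearts were taken is not given in the sources used here.

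Lists not described above gave few members at the unadjusted threshold over all 6 hearts, none of them called. Higher in males were 3 of 45 proteasome genes, 2 of 32 genes of autophagy and mitophagy, 1 of 30 of PI3K-AKT and insulin signalling, 1 of 14 of pericytes and smooth muscle and 1 of 4 mesothelial genes, with none higher in females. Higher in females were 1 of 30 genes of amino acid and sulfur metabolism, 1 of 19 of hypoxia and angiogenesis, 1 of 2 of T and NK cells, 1 of 6 of skeletal muscle and 1 of 9 of brown adipocytes, with none higher in males. Cholesterol and fatty acid synthesis gave 1 in each direction of 22, and detoxification 1 higher in males and 2 higher in females of 26. Markers of B and plasma cells (6 tested), Schwann cells and neurons (9), red blood cells (7) and lung, airway and thyroid (3) gave none. Without male replicate 1, where 10.8% of all genes passed higher in males and 10.2% higher in females, the counts were larger. In that fit 3.88% of all genes were called higher in males and 2.98% higher in females. The proteasome then gave 11 higher in males and 5 higher in females of 45 (6 and 3 called), PI3K-AKT and insulin signalling 6 and 5 of 30 (4 and 2 called), autophagy and mitophagy 4 and 5 of 32 (1 and 1 called), and pericytes and smooth muscle 4 and 0 of 15 (2 and 0 called). Amino acid and sulfur metabolism gave 0 and 5 of 30, cholesterol and fatty acid synthesis 1 and 5 of 22, detoxification 3 and 3 of 26, hypoxia 0 and 1 of 19, T and NK cells 0 and 3 of 3, mesothelium 1 and 0 of 5, skeletal muscle 1 and 0 of 6, brown adipocytes 0 and 1 of 9, B and plasma cells 1 and 0 of 6 and Schwann cells and neurons 1 and 1 of 9, while red blood cells (8 tested) and lung, airway and thyroid (4) gave none.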
